A study of Mus musculus with 6 samples.

Results

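DNA damage response and repair genes were examined in total RNA of freshly isolated mouse splenocytes. All 47 genes of a list of checkpoint and repair factors were found by symbol among the 56413 symbols of the deposited count table, and all 47 passed the filter on low counts that left 18716 tested genes. The list was split by function into 27 genes of the double-strand break response, 4 Fanconi genes, 14 excision repair genes and 2 mismatch repair genes. The libraries came from 3 splenocyte samples of wild-type genotype (WT) and 3 in which Top3b was knocked out (Top3b-KO), and Top3b encodes topoisomerase III-beta, an enzyme that passes single strands of DNA and RNA through one another. The study asks how this enzyme guards against tumours and immune dysregulation, and names R-loops, which are RNA paired to one strand of DNA, as a point of interest. The strain, age and sex of the animals, the design of the knockout allele, and whether each library is a separate animal are details that the sources used here do not give. The p-values therefore rest on the spread among these libraries, which may be technical.

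Cells answer a broken or blocked DNA strand in layers. Kinases such as ATM and ATR sense the lesion and mark the chromatin around it, and the pathway that follows depends on the lesion: recombination or end joining for double-strand breaks, the Fanconi proteins for crosslinks, excision for damaged bases and bulky adducts, and mismatch repair for copying errors. The spleen is mostly lymphocytes, which use several of these pathways on purpose: end joining assembles and switches immunoglobulin genes, and uracil excision and mismatch repair process the lesions that diversify antibodies. Recombination, Fanconi and checkpoint transcripts are also known to be more abundant in dividing cells.

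Library totals ranged from 9941014 to 25473404 counts, with both extremes among Top3b-KO libraries, and a floor of 3 counts lay between 0.119 and 0.303 CPM (counts scaled to the library total after TMM adjustment), far below every gene described here. Top3b itself was at 91.0 ± 4.06 CPM in WT against 49.8 ± 1.66 in Top3b-KO (SD, n = 3), which is -0.87 on the log2 scale (SE 0.071, adjusted p = 5.78e-06 by edgeR's quasi-likelihood test). Which exons the remaining Top3b counts come from is not known from a gene-level table. All 8 B cell and all 8 T cell markers were detected in all 6 libraries. T cell markers had 8 of 8 log2 fold changes above 0 (summed level 1260 to 1420 CPM in WT and 1388 to 1437 CPM in Top3b-KO), and B cell markers 1 of 8 (3993 to 4621 and 4191 to 4360 CPM). Red pulp macrophage markers had 8 of 8 below 0 (496 to 563 and 430 to 501 CPM), and erythroid markers 9 of 9 (median -0.37). At an unadjusted p under 0.05 by edgeR, 3 of 8 macrophage markers and 3 of 9 markers of myeloid progenitors and neutrophils were lower. At that level 1 of 20 proliferation markers was lower and 1 of 8 T cell markers higher, beside 3.69% of all tested genes lower and 1.83% higher. None of these markers passed the adjusted threshold by edgeR, and the part of cell makeup in the values of the 47 genes was not tested. In such bulk samples, fewer cells of a type and less RNA per cell cannot be told apart.

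Levels were compared between genes only per length, as CPM divided by the kilobases of annotated exon and averaged over the 6 libraries. Exon length was taken over all annotated transcripts of a gene, so exons that these cells do not use lower its value. On this scale the 47 genes spanned 1.12 to 53.2 CPM per kb, with a median of 6.55 against 4.56 for all tested genes. Parp1, which binds strand breaks and builds poly(ADP-ribose) there, was the highest at 53.2 CPM per kb. Next came Rpa1, a subunit of the protein that coats single-stranded DNA, at 24.8, the helicase gene Ercc3 at 20.7 and the kinase gene Atm at 19.5 CPM per kb. The lowest were Fancd2 at 1.12, the recombination motor gene Rad54l at 1.22 and Palb2, which bridges BRCA1 and BRCA2, at 1.44 CPM per kb. Among the listed genes the median was 2.57 CPM per kb for Fanconi, 2.68 for homologous recombination, 11.9 for end joining, 9.03 for damage signalling, 8.30 for base excision and 7.42 for nucleotide excision genes. These medians describe the 47 genes and not the whole pathways: further genes of the same pathways had medians of 3.81 for Fanconi, 3.37 for recombination and 4.60 CPM per kb for end joining. The 2 mismatch genes, Msh6 and Pms2, were at 18.8 and 5.09 CPM per kb.

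**Figure D1:**
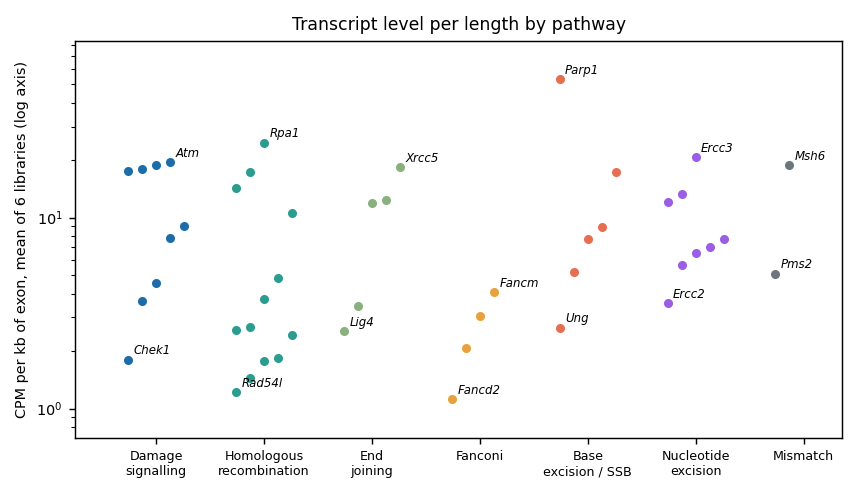
Mean level per kilobase of exon over 6 libraries (vertical log axis, CPM per kb) for the 47 genes, 1 point per gene, in columns by pathway; the highest and lowest gene of each column are named. The Fanconi genes lie between 1.12 and 4.06, while Parp1 stands highest at 53.2.

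Promoter sequence was compared as a feature that the list did not use. RefSeq sequences of GRCm38.p6 were found for 37 of the 47 genes (39 promoters), and the 250 bases before each start were searched on both strands. Their median GC content was 58.4% and the ratio of observed to expected CpG was 0.79, against 58.8% and 0.68 for 14296 promoters of tested genes. A CCAAT box was present in 21 of 39 (53.8%), against 34.9%. Rad54l entered with nearly identical windows, so its CCAAT box was counted more than once among the 21. Matches to E2F-type letters (TTTGGCGC, TTTCCCGC, TTTCGCGC or TTTGCCGC), the motif class of many S-phase genes, were present in 5 of 39 (12.8%), against 3.15%. They stood before Bard1, Brca2, Chek2, Mdc1 and Xrcc6, whose log2 fold changes ran from -0.043 to 0.053. The windows of Bard1, Chek2 and Xrcc6 also hold stretches found in annotated transcripts. These shares are a description, and a match is a run of letters, not a binding site. A pair of these promoters, 1 from recombination and 1 from damage signalling, is shown 5′ to 3′ with the E2F-type match in capitals; they are chr5:150522371-150522620 (plus strand) for Brca2, with the match ending 160 bases before the start, and chr17:35841248-35841497 (plus strand) for Mdc1, with the match ending 8 bases before it.
Brca2: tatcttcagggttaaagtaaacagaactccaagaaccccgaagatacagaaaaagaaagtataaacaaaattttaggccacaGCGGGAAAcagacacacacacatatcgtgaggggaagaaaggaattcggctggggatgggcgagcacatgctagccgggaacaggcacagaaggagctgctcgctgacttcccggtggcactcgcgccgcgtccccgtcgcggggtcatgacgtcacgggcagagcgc
Mdc1: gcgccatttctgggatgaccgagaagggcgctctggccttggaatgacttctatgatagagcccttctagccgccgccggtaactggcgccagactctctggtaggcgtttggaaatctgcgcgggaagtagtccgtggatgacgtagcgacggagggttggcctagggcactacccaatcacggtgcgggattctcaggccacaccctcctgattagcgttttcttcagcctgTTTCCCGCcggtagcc

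The 2 genes differed in level per length, at 1.76 CPM per kb for Brca2 and 17.9 CPM per kb for Mdc1. For both, WT and Top3b-KO libraries overlapped, with Mdc1 at 131 ± 8.04 CPM in WT against 134 ± 6.22 in Top3b-KO (SD, n = 3).

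No gene of the list passed the test for a change in Top3b-KO splenocytes. With edgeR's quasi-likelihood F test, adjusted over all tested genes after Benjamini and Hochberg, 0 of 47 passed an adjusted p of 0.05, where 0.0107% of all tested genes (2 of 18716) did, and the lowest adjusted p in the list was 0.903. At an unadjusted p under 0.05 there were 0 higher and 0 lower, beside 1.83% and 3.69% of all tested genes, and DESeq2 also gave 0 of 47 by either measure. The estimates were narrow. Log2 fold changes ran from -0.23 (Fancd2) to 0.23 (Xrcc4), and the 95% intervals of the individual genes between them reached from 0.701-fold to 1.39-fold. The interval lay wholly within 1.5-fold in either direction for 47 of 47 genes, compared with 66.9% of all tested genes and 97.7% of those in the same CPM range. These intervals are per gene and are not adjusted for the number of genes.

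**Figure D2:**
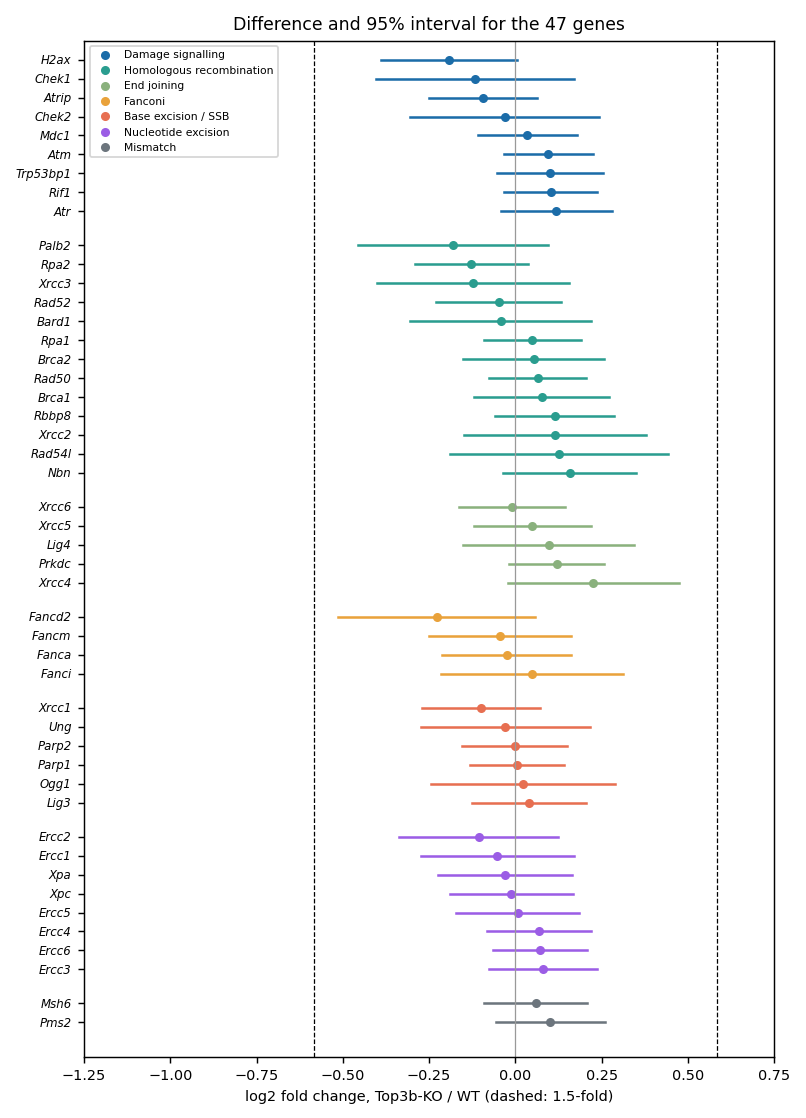
Log2 fold change of Top3b-KO over WT (horizontal axis) for each of the 47 genes, grouped and coloured by pathway; points are estimates from 3 against 3 libraries, lines are 95% intervals, and dashed lines mark a 1.5-fold change. Every line stays inside the dashed lines, from 0.701-fold (Fancd2) to 1.39-fold (Xrcc4).

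Of the 47 genes, 27 had a log2 fold change above 0 and 20 below, with a median of 0.035 against -0.0029 over all tested genes. The median was 0.053 for the 27 double-strand break genes, -0.035 for the 4 Fanconi genes, 0.0015 for the 14 excision genes and 0.080 for the 2 mismatch genes. Single libraries decided the smaller of these values: leaving out WT replicate 3 gave a median of -0.0011 for the 47 genes, leaving out Top3b-KO replicate 3 gave 0.018, and the Fanconi median was 0.025 without Top3b-KO replicate 1. The 3 Top3b-KO libraries lay above the 3 WT libraries for 8 genes (17.02%, where 5.39% of all tested genes did) and below them for 3 (6.38%, where 5.63% did). The 8 were Atm, Rif1, Brca1, Nbn, Rbbp8, Ercc4, Ercc6 and Pms2, and the 3 were H2ax, Rpa2 and Fancd2. All of the 8 but Ercc6 were highest in Top3b-KO replicate 2. That library was the highest for 13 of the 47 genes, and for 11.9% of all tested genes. Without that library 9 genes (19.1%) were higher, where 9.36% of all tested genes were. The number higher depended on the scaling and on single libraries, at 5 with library totals alone, where 4.49% of all tested genes were so placed. It was 14 without Top3b-KO replicate 1, where 11.2% were, and 10 (21.3%) without WT replicate 3, where 15.3% were.

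Damage signalling was the first layer described. Atm, whose kinase is activated by double-strand breaks, was at 189.6, 195 and 200.3 CPM in WT against 204, 212 and 209.5 in Top3b-KO. The groups did not overlap, but the fold change was small, with an interval of 0.976 to 1.17-fold and an adjusted p of 0.915 by edgeR. Rif1, which restrains the trimming of broken ends, was at 176, 174 and 187 CPM in WT against 187, 201 and 187 in Top3b-KO (0.977 to 1.18-fold). Its highest WT and lowest Top3b-KO libraries lay close together at 186.5 and 187.1 CPM. H2ax, the histone variant that ATM phosphorylates around a break, had the smallest unadjusted p of the list at 0.055 (adjusted p = 0.903, edgeR). Its values were 26.9, 29.7 and 27.5 CPM in WT against 26.1, 24.95 and 22.0 in Top3b-KO, a log2 difference of -0.19 (SE 0.0938), with every Top3b-KO library below every WT library. The lowest came from Top3b-KO replicate 3, the library with the fewest counts.

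The other signalling genes had overlapping groups. Atr, the kinase that responds to single-stranded DNA, had a mean of 103 ± 11.9 CPM in WT against 112 ± 1.98 in Top3b-KO (SD, n = 3), and WT replicate 1 was its lowest library at 91.8 CPM. Its partner gene Atrip was at 66.7 ± 1.65 and 62.5 ± 4.81 CPM. The effector kinase genes Chek1 and Chek2 were at 8.66 and 11.1 CPM in WT against 8.05 and 10.9 in Top3b-KO. Mdc1 and Trp53bp1, which encode scaffold proteins at broken chromatin, had intervals of 0.928 to 1.13-fold and 0.963 to 1.19-fold. Counts for Atrip are uncertain: 16.0% of its annotated exon bases are shared, on the same strand, with the exonuclease gene Trex1, which was listed at 0 in all 6 libraries. The sources used here do not say how reads in such shared stretches were assigned.

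Homologous recombination copies the missing stretch from an intact duplex. Among its genes Nbn, part of the complex that first grips broken ends, was at 26.3, 26.4 and 23.6 CPM in WT against 28.2, 30.0 and 26.5 in Top3b-KO. All Top3b-KO values lay above the WT values, by a margin of under 1 CPM at the nearest pair, and the interval was 0.976 to 1.27-fold (adjusted p = 0.915, edgeR). Its complex partner Rad50 was at 91.3 ± 2.78 CPM in WT against 95.5 ± 4.03 in Top3b-KO, and Rbbp8, which helps start end trimming, at 32.3 ± 0.868 and 34.8 ± 1.54 CPM. Rpa1 was at 139, 139 and 129 CPM in WT against 142, 147 and 132 in Top3b-KO. Its partner subunit gene Rpa2 was at 44.1, 44.7 and 45.5 CPM in WT against 40.5, 43.5 and 38.4 in Top3b-KO. The 2 subunits thus had estimates on opposite sides of 0, at 0.049 and -0.13 on the log2 scale, and only Rpa2 had groups that did not overlap; the difference between them was not tested.

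Tumour suppressor genes of this pathway had small differences, and of Brca1, Brca2, Bard1 and Palb2 only Brca1 had groups that did not overlap. Brca1 was at 20.2 ± 0.485 CPM in WT against 21.3 ± 0.284 in Top3b-KO, Brca2 at 23.6 ± 2.45 and 24.5 ± 0.486 CPM, and Bard1, the partner of BRCA1, at 14.9 ± 0.802 and 14.2 ± 2.51 CPM (SD, n = 3). Palb2 had the lowest estimate of the pathway, at 11.3 ± 1.51 CPM in WT against 9.85 ± 0.777 in Top3b-KO, with overlapping groups. Rad52, Xrcc2 and Xrcc3, which serve the strand-exchange step, had intervals of 0.852 to 1.10-fold, 0.902 to 1.30-fold and 0.757 to 1.11-fold. Rad54l, with 87 to 271 counts per library, had one of the widest intervals of the list, 0.877 to 1.36-fold.

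Classical end joining seals broken ends directly and is needed for antigen receptor assembly in lymphocytes. Xrcc4, which holds the ligase in place, was at 12.7, 13.5 and 14.3 CPM in WT against 14.0, 17.8 and 15.3 in Top3b-KO. Top3b-KO replicate 2 was its highest library, the groups overlapped, and the interval was 0.985 to 1.39-fold (unadjusted p = 0.072, adjusted p = 0.915, edgeR). Prkdc, the DNA-dependent protein kinase, was at 144, 146 and 161 CPM in WT against 163, 166 and 160.2 in Top3b-KO. WT replicate 3 fell inside the Top3b-KO range, and the other WT libraries lay below it. Xrcc5, a Ku subunit that threads onto the ends, was at 43.5, 48.3 and 47.1 CPM in WT against 44.4, 49.3 and 50.4 in Top3b-KO. The other Ku subunit gene Xrcc6 and the ligase gene Lig4 had intervals of 0.893 to 1.10-fold and 0.9004 to 1.27-fold. The median log2 fold change of these 5 genes was 0.096, with 4 of 5 above 0, and it ran from 0.049 to 0.16 when single libraries were left out. Without WT replicate 3, Atr, Prkdc and Rif1 had an unadjusted p under 0.05; that is 6.38% of the 47 genes, fewer than the 13.2% of all tested genes in that fit, and 0 of 47 passed the adjusted threshold.

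Fanconi proteins unlock strands that are crosslinked to each other. Fancd2, which is clamped onto DNA together with FANCI, was at 9.17, 8.85 and 10.6 CPM in WT against 7.37, 8.56 and 8.70 in Top3b-KO. Every Top3b-KO library was below every WT library, with an interval of 0.701 to 1.04-fold (unadjusted p = 0.11, adjusted p = 0.915, edgeR). With 86 to 216 counts per library, it was also the gene with the lowest level per length. Its clamp partner Fanci was at 11.7 ± 0.777 CPM in WT against 12.3 ± 1.54 in Top3b-KO, with an interval of 0.861 to 1.24-fold. Fancm, the translocase that finds stalled forks, was at 47.01, 39.1 and 42.5 CPM in WT against 37.1, 40.6 and 48.2 in Top3b-KO. Its spread within genotypes exceeded the difference between them, and Top3b-KO replicates 1 and 3 were the lowest and the highest of the 6. Fanca, of the core complex, was at 26.9 ± 1.24 and 26.6 ± 1.26 CPM.

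Base excision and single-strand break repair genes deal with damaged bases and nicks, and 3 of the 6 had estimates above 0. Parp1 was at 278, 295 and 270.2 CPM in WT against 272, 280.3 and 294 in Top3b-KO, an interval of 0.913 to 1.10-fold, and its relative Parp2 had one of 0.898 to 1.11-fold. Xrcc1, the scaffold of nick repair, was at 52.5, 58.6 and 50.1 CPM in WT against 53.8, 47.5 and 49.0 in Top3b-KO. Lig3, its ligase partner, was at 54.1, 60.6 and 51.1 CPM in WT against 55.4, 56.2 and 59.1 in Top3b-KO. WT replicate 2 was highest for both, and the groups overlapped for all 6 genes of the group. The glycosylase genes Ung, which removes uracil, and Ogg1, which removes oxidised guanine, had estimates of -0.029 and 0.022 on the log2 scale.

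Nucleotide excision cuts out bulky adducts. Ercc6, which couples this repair to stalled RNA polymerase, was at 88.1, 86.6 and 90.5 CPM in WT against 93.9, 90.8 and 94.2 in Top3b-KO. Its groups did not overlap, with an interval of 0.957 to 1.16-fold. Ercc3, a helicase of the transcription factor TFIIH, was at 58.9, 59.0 and 53.3 CPM in WT against 60.1, 62.6 and 58.0 in Top3b-KO, with overlapping groups. Ercc4, which cuts one side of the lesion with ERCC1, was at 51.1 ± 0.475 CPM in WT against 53.5 ± 0.952 in Top3b-KO, while Ercc1 was at 20.8 ± 2.35 and 19.9 ± 1.17 CPM. The damage-binding genes Xpc and Xpa, the nuclease gene Ercc5 and the helicase gene Ercc2 had estimates between -0.11 and 0.0060 on the log2 scale, and all 4 had overlapping groups.

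Mismatch repair was represented by Msh6, which recognises the mispair, and Pms2, which nicks the new strand. Msh6 was at 86.7, 76.4 and 77.5 CPM in WT against 83.9, 85.3 and 81.0 in Top3b-KO, with WT replicate 1 the highest of the 6. Pms2 was at 39.3, 40.6 and 39.8 CPM in WT against 42.9, 43.3 and 42.1 in Top3b-KO. All Top3b-KO libraries lay above all WT libraries, and the interval was 0.961 to 1.20-fold and the adjusted p was 0.924 by edgeR.

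**Figure D3:**
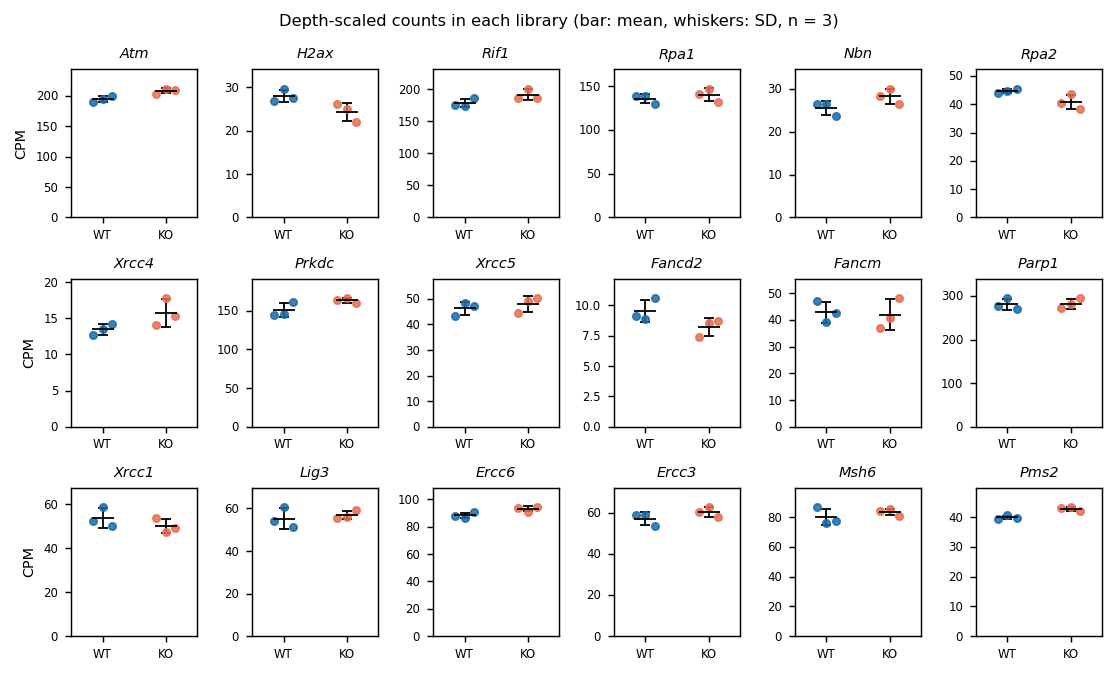
CPM (vertical axes, from 0) in each of the 3 WT (blue) and 3 Top3b-KO (orange) libraries for 18 genes; bars are means and whiskers SD. H2ax, Rpa2 and Fancd2 sit lower in all 3 Top3b-KO libraries, and Atm, Rif1, Nbn, Ercc6 and Pms2 higher, each by a small part of its level.

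A further 106 repair genes outside the list, from the same pathways, were fitted in the same way, and 0 passed by edgeR. Of them 52 had a log2 fold change above 0 and 54 below, with a median of -0.00088. At an unadjusted p under 0.05 there were 3 (2.83%), below the 5.52% of all tested genes in either direction. Wrn, a helicase, was at 88.8 ± 2.70 CPM in WT against 98.6 ± 3.66 in Top3b-KO (adjusted p = 0.879, edgeR). Mus81, a nuclease that cuts branched DNA, was at 33.0 ± 2.74 and 29.0 ± 0.656 CPM (adjusted p = 0.895, edgeR), and Polm, an end joining polymerase, at 48.1 ± 3.17 and 41.6 ± 2.74 CPM (adjusted p = 0.856, edgeR). The further mismatch genes had a median of 0.13 with 6 of 6 above 0, and the further end joining genes one of -0.022 with 4 of 13 above 0.

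Dividing cells were followed with 20 proliferation genes. Their mean log2 CPM over the WT samples was 4.42, 4.14 and 4.21, and over the Top3b-KO samples 4.27, 4.16 and 3.84, a difference of -0.16 (exact permutation p = 0.5, two-sided, where 3 against 3 cannot give less than 0.1). All 20 were detected, 18 of 20 had a log2 fold change below 0, and their summed level was 625 to 739 CPM in WT and 523 to 675 CPM in Top3b-KO. The antigen Mki67 was at 211 ± 25.6 and 208 ± 25.4 CPM, and Top2a, the topoisomerase of dividing cells, at 149.9 ± 14.8 and 131 ± 20.0 CPM. Top3b-KO replicate 3 had the lowest proliferation score. In that library 6 of the 47 genes were at their lowest (H2ax, Bard1, Palb2, Rpa2, Ung and Xpa) and 7 at their highest (Xrcc2, Xrcc5, Fanca, Fanci, Fancm, Ogg1 and Ercc6). Of all tested genes, 17.8% were at their lowest and 19.0% at their highest there. The 6 include H2ax and Rpa2, which are among the 3 genes whose Top3b-KO libraries all lay below WT. The mean log2 CPM of the 4 Fanconi genes was lowest in Top3b-KO replicate 1 (4.06) and highest in Top3b-KO replicate 3 (4.33), where the proliferation score was lowest. The summed level of the markers of myeloid progenitors and neutrophils was highest in this library, at 1425 CPM against 432 to 1063 CPM in the other 5. Only the neutrophil markers of that list peaked there, and its progenitor markers peaked in WT libraries. The mean log2 CPM of the 9 markers was 4.95 in this library and 4.94 in WT replicate 2. The part of cell division in the levels of single genes was not tested.

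**Figure D4:**
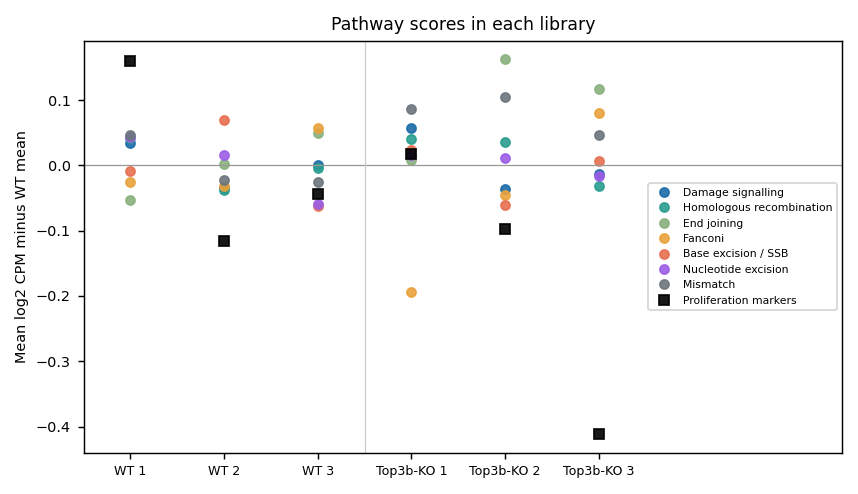
Mean log2 CPM of each pathway minus its WT mean (vertical axis) in each of the 6 libraries, with the 20 proliferation genes as black squares. The Fanconi genes range from 4.06 to 4.33 before the WT mean is subtracted, and the proliferation genes from 3.84 to 4.42, lowest in Top3b-KO replicate 3.

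The estimates were also read by annotated exon length, taken over all transcripts of a gene, a split chosen after their values were seen. At the median annotated exon length of 5.66 kb, 16 of 23 longer genes had a log2 fold change above 0, with a median of 0.053, and 11 of 24 of the others did, with a median of -0.0064. The 12 longest, from 8.12 to 23.6 kb and including Atr, Trp53bp1, Brca2, Prkdc, Rif1 and Atm, had 10 above 0 and a median of 0.097. The shortest gene, H2ax, at 1.38 kb, was among the lowest. Single genes also went the other way: Nbn, at 2.53 kb, had an estimate of 0.16, and Fancd2, with the lowest estimate at -0.23, has 7.94 kb. The same split over all tested genes in the same CPM and length range gave 63.3% of 3431 longer genes above 0 (median 0.027) and 44.3% of 5393 shorter genes (median -0.014). Of the 8 genes whose Top3b-KO libraries all lay above WT, 7 were in the longer group (30.4% of its 23), where 7.84% of longer genes in that range did so. Pearson's r between log2 exon length and log2 fold change was 0.33 across the 47 genes and 0.083 across 17624 tested genes. Spearman's rho was 0.33 and 0.12. The 17624 genes were not limited to the CPM and length range of the 47. These values are a description, since genes share libraries and are not replicates. Relative to the WT mean, the median of the 23 longer genes of the list was 0.057, 0.039 and 0.066 in the 3 Top3b-KO libraries. It lay between -0.021 and 0.018 in the WT libraries. For the 3431 longer tested genes in the same CPM and length range the median was 0.030 in each Top3b-KO library and -0.0086 to 0.013 in WT. Because the WT mean of each gene was subtracted, WT values must lie around 0. The WT ranges are therefore no independent comparison. The part of length in the values of single genes was not tested.

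**Figure D5:**
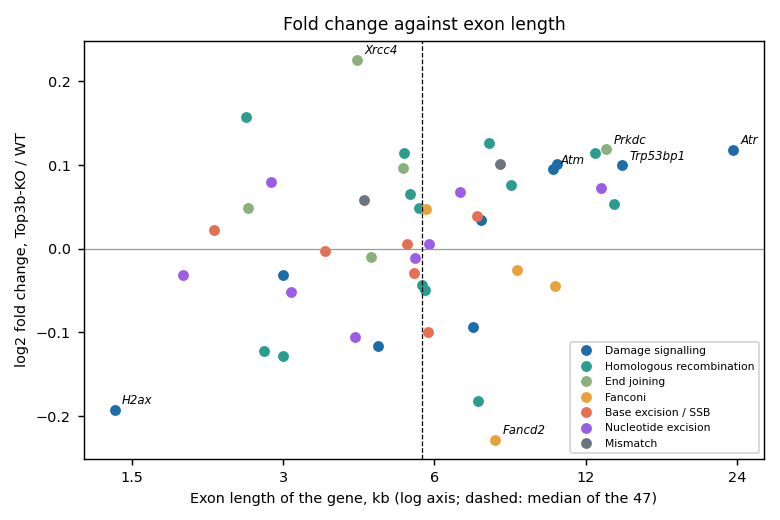
Log2 fold change of Top3b-KO over WT (vertical axis) against annotated exon length in kb (horizontal log axis) for the 47 genes, coloured by pathway; the dashed line is the median of 5.66 kb. To its right 16 of 23 points lie above 0, and to its left or on it 11 of 24.

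Annotated overlap limits some values. On the opposite strand, Lig3 shares 25.1% of its exon bases with Rffl, Ercc2 24.6% with Gm26852 and 17.8% with Klc3, Fanci 16.0% with Polg, Rad54l 15.4% with Lrrc41 and Trp53bp1 15.0% with Tubgcp4. The library kits keep strand, per the labels' protocols, but the sources used here do not give the strand setting of the counting, so reads of these pairs may be mixed.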

How the data were processed

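Ribosomal-RNA-depleted total RNA of 3 WT and 3 Top3b-KO splenocyte samples was analysed; the R-loop assay named in the design was not analysed here. The authors deposited expected counts per gene symbol, and the submitters' processing notes name STAR and the mm39 build; the sources used here do not name the counting tool. Values of 72 symbols were not whole (tolerance 1e-06; 0 of the 47 genes) and were rounded. Genes kept by edgeR's filterByExpr, 18716, were tested with edgeR 4.0.16 (R 4.3.3), using TMM factors, robust quasi-likelihood F tests, genotype as the term and Benjamini-Hochberg adjustment at 0.05. Intervals are 95%, from the quasi-likelihood standard error. CPM are TMM-scaled; floors of 3 counts cover counting error only.

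Exon lengths are unions of GENCODE M21 exons, matched by symbol for 49379 symbols. That annotation is on GRCm38, not mm39, so promoter positions refer to GRCm38.p6. A 25-base search of GENCODE M21 transcripts kept promoters with transcribed stretches from being printed. Genes given in every library were, per pathway, the 2 with the smallest p and the most abundant per length; other genes named with values belong to the list, are further repair genes with an unadjusted p under 0.05, or are Top3b, Mki67 and Top2a. The genes and lists were chosen with earlier results of these data known. Alternatives used limma 3.58.1 and DESeq2 1.42.0, other scalings and filters, the replicate block and each library left out.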

Additional observations from a re-analysis of the deposited data

How the results depend on the processing

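The count of the 47 genes past the adjusted threshold was 0 in each of 13 alternatives (DESeq2 size factors, upper quartile factors, DESeq2's Wald test, limma-voom, no filter, a filter of 1 CPM in 3 libraries, the replicate block and each of the 6 libraries left out), and so was that of the 106 further repair genes. Among all genes, 2 passed by edgeR, 6 by DESeq2's Wald test, 44 with no filter on low counts and 41 with the replicate number as a block, and 1 to 32 when single libraries were left out (32 without WT replicate 3, 9 without Top3b-KO replicate 1); the cause was not tested. Same-numbered libraries had correlations of 0.156, -0.0067 and 0.0093 in their deviations from the group means, so the numbers were not taken as pairs; under the replicate block H2ax had an unadjusted p under 0.05, as did 6.86% of all tested genes, with an adjusted p of 0.712 by edgeR. Leaving out WT replicate 1 gave such a p for H2ax and Trp53bp1, and leaving out Top3b-KO replicate 1 gave it for H2ax and Xrcc4; 2 of 47 is 4.26%, beside 5.30% and 5.59% of all tested genes in these fits. Lowest and highest values over the 6 fits with 1 library left out were -0.0011 and 0.039 for the median log2 fold change of the 47 genes and -0.021 and 0.039 for nucleotide excision. For the count of genes whose groups did not overlap they were 9 and 14 higher and 3 and 6 lower, against 8 and 3 with all libraries. Smaller groups overlap less often: in those fits 9.05% to 15.3% of all tested genes were higher and 8.88% to 15.7% lower. Library totals alone gave 5 higher. These overlap counts and the split by exon length were added after seeing the data, and the longer genes kept a median above 0 (0.037 to 0.071) with each library left out. Estimates of 29 of the 47 genes kept their sign in every alternative. The alternatives share libraries, so such agreement is partly built in, and no share of all tested genes is given beside this count. With other settings the sign turned for Parp2, to 0.00090 with upper quartile factors and 0.0060 with no filter, and for Ogg1, to -0.0026 with limma-voom; the cause was not tested. With single libraries left out it turned for 18, whose log2 fold changes ran over these ranges: Chek2 -0.12 to 0.052, Mdc1 -0.0011 to 0.082, Brca2 -0.033 to 0.10, Bard1 -0.13 to 0.067, Rad54l -0.019 to 0.22, Xrcc6 -0.046 to 0.016, Fanca -0.065 to 0.0034, Fanci -0.019 to 0.16, Fancm -0.14 to 0.046, Lig3 -0.016 to 0.11, Parp1 -0.025 to 0.042, Parp2 -0.043 to 0.032, Ung -0.090 to 0.056, Ogg1 -0.059 to 0.12, Ercc1 -0.14 to 0.0021, Ercc5 -0.047 to 0.037, Xpa -0.074 to 0.031 and Xpc -0.11 to 0.042. The largest standard error of the 47 was that of Rad54l (0.15), with 87 to 271 counts per library and a WT SD of 18.6% of its mean. Chek1, with 85 to 199 counts per library, had a standard error of 0.137. The part of depth in the precision of single genes was not tested.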
